A study of Mus musculus with 6 samples.

Results

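The Notch pathway was examined through 10 genes in antigen-stimulated mouse mast cells that had or lacked the microRNA miR-155. They were 2 receptors (Notch1, Notch2), the 3 Fringe glycosyltransferases (Lfng, Mfng, Rfng), the nuclear DNA-binding factor Rbpj, the 3 Mastermind-like coactivators (Maml1, Maml2, Maml3) and the target gene Hes1. The 10 symbols were given by name, and all 10 were found among the 19938 genes that the platform annotation pairs with a single symbol. The symbols were put together with earlier results of these arrays known, so the p-values of the 10 are not independent evidence. Where a symbol had more than 1 probe set (a row of the array), the one with the highest mean over the 6 arrays was kept. This mattered for 2 genes. For Rbpj a probe set with a mean of 8.69 was kept over another at 2.81, and for Maml2 one at 5.67 over another at 4.93.

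The study compared mast cells grown from bone marrow of C57BL/6J mice, either wild type (WT) or miR-155 KO, with 3 independent cultures and 3 arrays per genotype. Every culture was kept for 5 weeks in recombinant murine IL-3 at 0.5 ng/ml plus SCF at 1 ng/ml, loaded overnight with anti-DNP IgE at 0.2 µg/ml, and stimulated for 1 h with DNP-HSA antigen (20 ng/ml) before RNA was taken. Both groups therefore carry the same IgE and antigen treatment, and none of the 6 arrays is from unstimulated cells. The labels do not say whether the 3 cultures of a genotype came from different mice, how the miR-155 allele was made, or whether the WT mice were littermates. All values below are log2 intensities after RMA, a normalization that makes differences between arrays log2 ratios. They are given for WT replicates 1, 2 and 3 and then KO replicates 1, 2 and 3.

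Notch receptors are cut in steps when a Delta or Jagged ligand on a neighbouring cell binds them. Furin cleaves the maturing receptor, ADAM proteases cut it after ligand binding, and γ-secretase then frees the intracellular domain, which enters the nucleus. There it joins RBPJ, a protein that otherwise holds target genes silent with corepressors, and a Mastermind-like protein, and together they switch on targets such as the repressor gene Hes1. Fringe enzymes act earlier, in the Golgi, where they lengthen O-linked fucose on the receptor and so change how well it answers Delta and Jagged ligands. In mouse mast cells Notch2 is known for a part in their positioning in the gut, and Notch signalling for promoting mast cell differentiation from progenitors.

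The 5p strand of miR-155, the microRNA absent from the KO cells, is shown because its seed, bases 2 to 8 in capitals, sets which transcripts it can pair with. It is followed by the 250 bases before the annotated start of Lfng and Maml3, the 2 members that changed between genotypes, and before 1 of the 2 annotated starts of Rbpj, whose product is the DNA-binding protein of the pathway. The Rbpj start nearer the 5′ end was taken, and its window holds 2 core matches where the other holds 1. Capitals in the promoters mark the letters GTGGGAA, a high-affinity RBPJ site, or its shorter core TGGGAA, on either strand (TTCCCA for the core on the reverse strand). All sequences are RefSeq's on build GRCm38.p6 and are written 5′ to 3′ on the strand of the gene.
miR-155-5p, chr16:84714143-84714165, plus strand: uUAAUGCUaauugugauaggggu
Lfng, chr5:140607091-140607340, plus strand: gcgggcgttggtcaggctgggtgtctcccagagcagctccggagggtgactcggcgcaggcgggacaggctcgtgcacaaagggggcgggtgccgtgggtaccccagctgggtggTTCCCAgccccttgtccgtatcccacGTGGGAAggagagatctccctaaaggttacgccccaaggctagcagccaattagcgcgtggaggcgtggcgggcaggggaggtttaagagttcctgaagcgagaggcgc
Maml3, chr3:52105007-52105256, minus strand: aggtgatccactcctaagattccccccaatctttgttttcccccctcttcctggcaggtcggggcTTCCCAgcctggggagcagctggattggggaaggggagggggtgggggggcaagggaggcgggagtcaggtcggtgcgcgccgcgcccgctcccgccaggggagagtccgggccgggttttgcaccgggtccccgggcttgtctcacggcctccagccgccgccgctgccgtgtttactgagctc
Rbpj, chr5:53590096-53590345, plus strand: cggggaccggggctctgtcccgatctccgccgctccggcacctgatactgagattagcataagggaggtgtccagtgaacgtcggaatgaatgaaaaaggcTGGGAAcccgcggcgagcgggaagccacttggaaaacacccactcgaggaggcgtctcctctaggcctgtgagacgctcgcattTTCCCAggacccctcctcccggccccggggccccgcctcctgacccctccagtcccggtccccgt

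Promoter windows were found for 8 of the 10 genes, namely Notch1, Notch2, Lfng, Rfng, Rbpj, Maml1, Maml2 and Maml3. Rbpj and Maml2 have 2 annotated starts each, which makes 10 windows, and the 2 Rbpj windows overlap. The full GTGGGAA site occurred in 1 of the 10 windows, that of Lfng, at bases -109 to -103 before the start. It occurred in 5.42% of all 32851 RefSeq promoter windows of this length. The core TGGGAA, which the full site contains, occurred in 5 of the 10 windows, against 21.6% of all windows. These 5 were the Lfng and Maml3 windows, 1 of the 2 for Maml2, and both for Rbpj, which share a match. In Lfng the full site also overlaps the E-box letters CACGTG at -112 to -107, which were looked for after the sequence was seen and occur in 6.02% of all windows. These are matches of letters, and no binding was measured.

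Before the members' values, the arrays themselves need a short account. The mast cell label was checked against its markers, which were high in both genotypes. Fcer1a and Ms4a2, chains of the IgE receptor, had WT means of 12.06 and 10.38 and KO means of 12.10 and 10.19. For Kit, which binds SCF, the WT mean was 11.89 and the KO mean 11.82. The carboxypeptidase gene Cpa3 averaged 12.78 in WT and 12.97 in KO. Of 13 measured mast cell markers 0 passed limma's test (lowest adjusted p = 0.174). At an unadjusted p under 0.05 there were 4, where the share of all genes was 12.7%. The differences of the 13 ran from -0.29 to 0.84. KO lay wholly above WT for 3 and wholly below for 0, or 23.1% without overlap against 17.2% of all genes. Of 53 measured markers of other blood and stromal cells, 29 lay at or below 3.39. This is the 95th percentile of 1027 olfactory receptor genes, taken as a stand-in for background. The 29 included all 9 neutrophil markers and the T and B cell markers Cd3d, Cd4, Ms4a1, Cd79a and Pax5. Of the same lymphocyte list Cd3e, Cd8a and Ncr1 lay above it. Of 6 basophil and eosinophil markers only Epx lay at or below it, while Mcpt8, Prss34, Cd200r3, Prg2 and Siglecf lay above. Only Pf4 of 6 megakaryocyte and erythroid markers lay at or below it, as did 5 of 9 stromal and 3 of 7 dendritic cell markers. Of the 53, 1 changed, Cx3cr1, which fell by 0.95 (adjusted p = 0.028). Of the 8 macrophage markers Adgre1, Cd14, Mertk, C1qa and C1qb lay at or below that level, Csf1r just above it, and Cd68 (mean 8.46 in WT and 8.10 in KO) and Cx3cr1 (8.80 and 7.85) well above it. The 8 summed to between 36.4 and 36.9 on the WT arrays and between 34.0 and 35.5 on the KO arrays, and their part in the results below was not tested. KO replicate 1 stood apart on the first principal component, at 32.0 against 5.4 and 7.3 for KO replicates 2 and 3 and -19.5 to -10.6 for WT. The probe set for Mir155, the deleted gene, read 2.93, 2.88 and 3.17 in WT and 2.77, 2.91 and 2.90 in KO, near the bottom of the arrays' range, and so checks neither the deletion nor the labels. In such bulk samples fewer cells expressing a gene and less RNA per cell cannot be told apart.

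Among the 10 genes, 1 rose and 1 fell in miR-155 KO mast cells. Lfng rose 2.29-fold and Maml3 fell to a level 1.51-fold lower. The other 8 did not pass limma's test at an adjusted p under 0.05. Over all 19938 genes 0.823% passed, 0.507% upwards and 0.316% downwards. The 3 KO arrays lay wholly above the 3 WT arrays for 4 of the 10 (Lfng, Rbpj, Maml2 and Notch1) and wholly below for 3 (Maml3, Hes1 and Mfng). Over all genes the groups did not overlap for 17.2%, 8.18% with KO above and 9.05% with KO below. The symbols were put together with earlier results of these arrays known, so these shares describe the 10 genes and carry no weight as evidence about the pathway. The median difference of the 10 was 0.05, beside -0.01 for all genes, because members lay on both sides of 0.

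**Figure D1:**
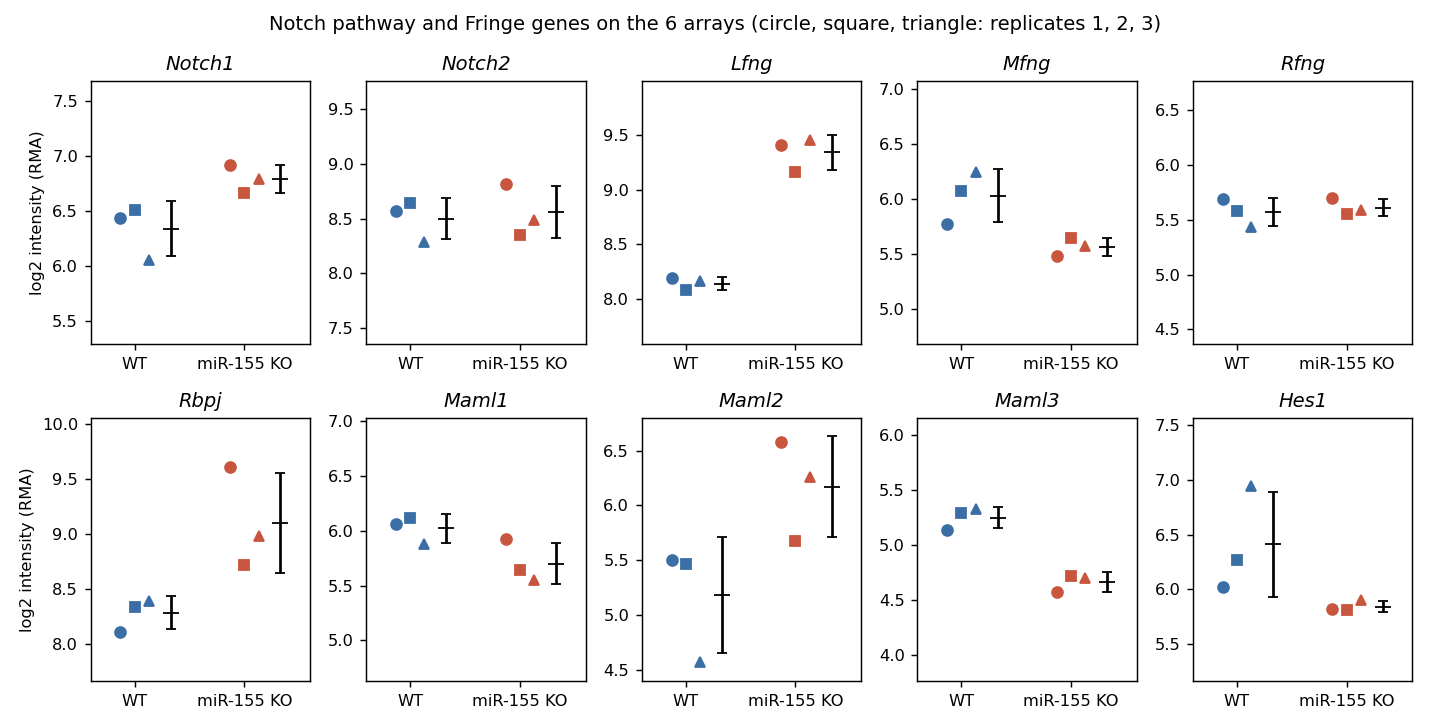
Log2 intensity of each of the 10 genes on the 6 arrays, WT in blue and miR-155 KO in red, with the group mean and SD (n = 3) as black bars. Every panel spans the same number of log2 units, so distances can be compared between panels. Lfng lies at 8.08 to 8.19 in WT and 9.16 to 9.45 in KO, while Notch2 and Rfng overlap.

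Notch1 and Notch2, the receptors, are taken first. Notch1 read 6.44, 6.51 and 6.05 in WT and 6.92, 6.66 and 6.79 in KO. All 3 KO arrays were higher than all 3 WT arrays, and WT replicate 3 was the low one. The difference was 0.45 (SE 0.13, 95% interval 0.15 to 0.76, limma adjusted p = 0.174), so it did not pass, and it was 0.31 without WT replicate 3. Notch2 read 8.57, 8.64 and 8.29 in WT and 8.82, 8.35 and 8.49 in KO. The groups overlapped, with KO replicate 1 the highest array and WT replicate 3 the lowest. The difference was 0.05 with an interval of -0.27 to 0.37 (limma adjusted p = 0.94), and its sign changed without KO replicate 1 (-0.08) or WT replicate 3 (-0.05). Within each array Notch1 minus Notch2 was -2.13, -2.13 and -2.24 in WT and -1.90, -1.70 and -1.70 in KO, 0.40 higher in KO without overlap. The exact permutation p, two-sided, was 0.1, which is the smallest that 3 against 3 arrays allow, so a pair of this kind could not pass 0.05.

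Of the Fringe enzymes, Lfng was the member with the clearest change of the 10. Lunatic fringe, its product, adds N-acetylglucosamine to O-fucose on Notch receptors. Lfng read 8.19, 8.08 and 8.17 in WT and 9.41, 9.16 and 9.45 in KO. The 3 WT arrays lay close together, and the lowest KO array stood well above the highest WT array. The means were 8.14 ± 0.06 in WT and 9.34 ± 0.16 in KO (SD, n = 3), a rise of 1.19 (SE 0.10, 95% interval 0.97 to 1.42, limma adjusted p = 0.00359). Only 5 of the 19938 genes had a lower p, since Lfng ranked 6. The rise passed without each array in turn, between 1.14 and 1.28 with adjusted p from 0.00247 to 0.0337, and it was 1.16 without KO replicate 1 (adjusted p = 0.0064). It was lost when all 35557 rows of the table were tested together (adjusted p = 0.0523) and in an ordinary pooled-variance test (adjusted p = 0.21).

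Mfng and Rfng, which encode manic and radical fringe and act on the same sugar, did not pass the test. Mfng read 5.77, 6.07 and 6.25 in WT and 5.48, 5.64 and 5.57 in KO. Here the KO arrays all lay below the WT arrays. The difference was -0.47 (SE 0.13, limma adjusted p = 0.138) and passed under none of the 15 alternatives (adjusted p from 0.109 to 0.459). Rfng read 5.69, 5.58 and 5.43 in WT and 5.70, 5.55 and 5.59 in KO. The groups overlapped, and the difference of 0.05 had an interval of -0.17 to 0.26 (limma adjusted p = 0.921).

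Set against its relatives on the same array, Lfng gave values that did not overlap between the genotypes. Lfng minus Mfng was 2.41, 2.01 and 1.91 in WT and 3.92, 3.52 and 3.88 in KO, a shift of 1.66. Lfng minus Rfng was 2.49, 2.50 and 2.74 in WT and 3.71, 3.61 and 3.86 in KO, a shift of 1.15. Both pairs had an exact permutation p of 0.1 (two-sided), the smallest possible, and an adjusted p of 0.14 over the 7 pairs compared. Mfng minus Rfng shifted by -0.51 with overlapping groups (exact permutation p = 0.2, adjusted p = 0.233), and by -0.33 without WT replicate 3. These within-array values compare changes, and since probe sets differ in brightness they do not rank the 3 transcripts by amount.

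**Figure D2:**
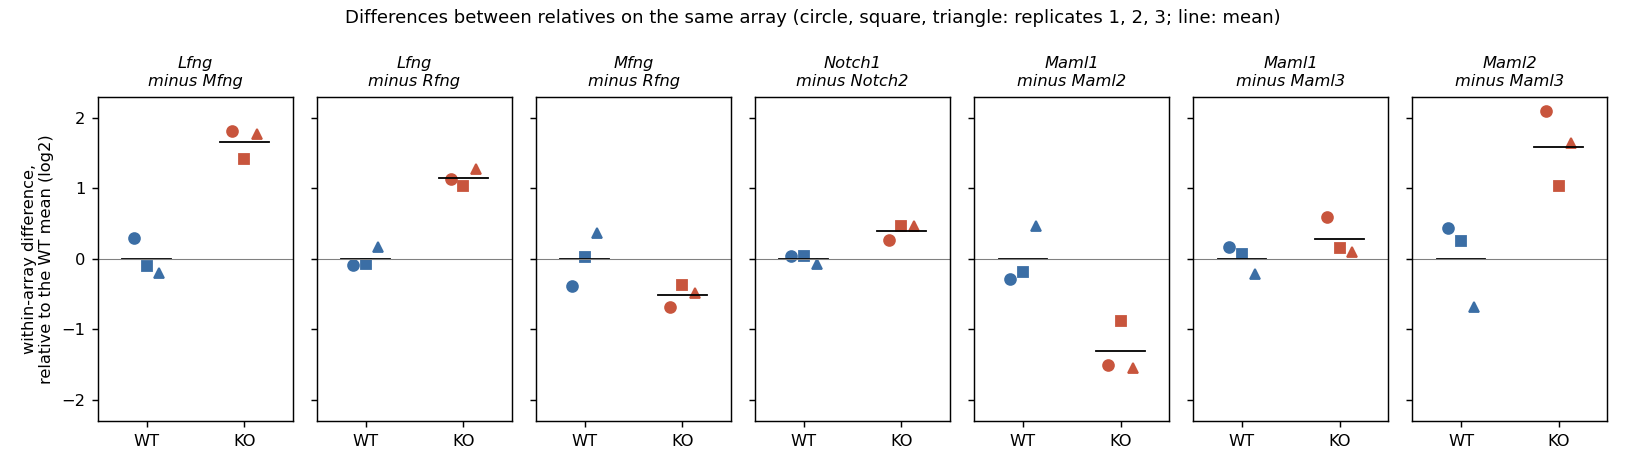
Difference between 2 related genes on the same array in log2 units, set to the WT mean of each pair, for the 3 WT (blue) and 3 KO (red) arrays, with a line at each group mean. Lfng minus Mfng shifts by 1.66 and Maml2 minus Maml3 by 1.58 in KO, while the groups overlap for Mfng minus Rfng and Maml1 minus Maml3.

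In the nucleus, Rbpj lay above WT on all KO arrays without passing the test. It read 8.11, 8.33 and 8.39 in WT and 9.61, 8.72 and 8.98 in KO. KO replicate 1, the array that stood apart, was by far the highest, and KO replicate 2 was closest to WT. The difference was 0.83 (SE 0.20, 95% interval 0.37 to 1.29, limma adjusted p = 0.109). Without KO replicate 1 it was 0.58 (adjusted p = 0.116), and over all 15 alternatives the adjusted p ran from 0.0611 to 0.477. The second Rbpj probe set read 2.65 to 2.95 on all 6 arrays, below the stand-in for background, and differed by -0.02.

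The Mastermind-like genes, whose products bridge the Notch and RBPJ complex to histone acetyltransferases, had differences of both signs. Maml3 read 5.14, 5.29 and 5.33 in WT and 4.57, 4.72 and 4.70 in KO. All KO arrays were lower, and the 3 arrays of each genotype lay close together. Maml3 fell by 0.59 (SE 0.09, 95% interval -0.80 to -0.38, limma adjusted p = 0.0288). The fall did not pass without any 1 of the 6 arrays (adjusted p from 0.0531 to 0.114), although its size stayed between -0.65 and -0.54.

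Maml2 had the larger spread of the family. It read 5.50, 5.47 and 4.57 in WT and 6.58, 5.68 and 6.26 in KO. WT replicate 3 lay far below the other WT arrays, and KO replicate 2 was only slightly above WT replicate 1. The difference was 0.99 (SE 0.28, 95% interval 0.35 to 1.64, limma adjusted p = 0.166) and became 0.69 without WT replicate 3. The second Maml2 probe set read 4.93, 4.81 and 4.59 in WT and 5.26, 4.84 and 5.14 in KO. Its groups overlapped, and its difference was 0.30, so the 2 probe sets gave the same sign and different sizes. Maml1 read 6.06, 6.12 and 5.88 in WT and 5.92, 5.64 and 5.55 in KO, with KO replicate 1 inside the WT range. The difference was -0.32 (SE 0.12, limma adjusted p = 0.285).

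Within arrays, Maml2 minus Maml3 was 0.36, 0.17 and -0.76 in WT and 2.01, 0.95 and 1.56 in KO, a shift of 1.58, and Maml1 minus Maml2 shifted by -1.31. In both the groups did not overlap (exact permutation p = 0.1 each, adjusted p = 0.14). Maml1 minus Maml3 shifted by 0.27 with overlap (exact permutation p and adjusted p both 0.3), and by 0.12 without KO replicate 1 and 0.16 without WT replicate 3. With the second Maml2 probe set averaged in, no pair changed sign, but Maml2 minus Maml3 shifted by 1.24 and Maml1 minus Maml2 by -0.97. Leaving out 1 array, Maml2 minus Maml3 ran from 1.24 (without WT replicate 3) to 1.86 (without KO replicate 2).

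Hes1, a transcriptional repressor and a textbook target of the RBPJ complex, lay lower in KO without passing. It read 6.02, 6.27 and 6.94 in WT and 5.82, 5.81 and 5.90 in KO. The KO arrays were nearly alike, with an SD of 0.05, and WT replicate 3 was far above the other arrays. The difference was -0.57 (SE 0.20, 95% interval -1.03 to -0.11, limma adjusted p = 0.27). Without WT replicate 3 it was -0.30, so that array carried much of its size.

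**Figure D3:**
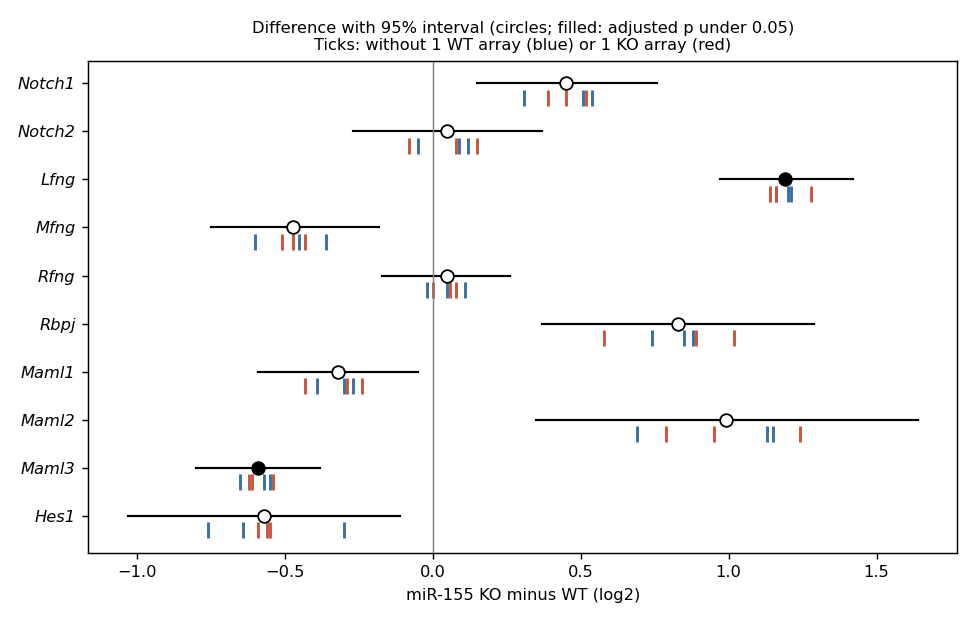
Difference miR-155 KO minus WT in log2 units for the 10 genes, with the 95% interval from limma as a line and filled circles for an adjusted p under 0.05. Ticks under each line give the difference without 1 WT array (blue) or 1 KO array (red). Lfng stays between 1.14 and 1.28, whereas the Hes1 ticks run from -0.76 to -0.30.

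The arrays ranked alike for the members that lay higher in KO. For Lfng, Rbpj, Maml2 and Notch1, 4 of 4, KO replicate 2 was the lowest of the KO arrays, and KO replicate 1 was the highest for 3 of the 4. Of all 1631 genes with the KO arrays wholly above WT, 54.0% had KO replicate 2 lowest and 51.6% had KO replicate 1 highest. The ranking is therefore common on these arrays. Of the 7 members whose groups did not overlap, WT replicate 3 was the WT array farthest from KO for 5, Notch1, Maml2, Mfng, Hes1 and Maml3. The share of all genes with this order was not counted, so it is not a trait shown for these members. On the first principal component WT replicate 3 was also the WT array farthest from KO, at -19.5. WT replicates 1 and 2 were at -14.6 and -10.6. Leaving out the WT array farthest from KO must bring a difference nearer 0. Without WT replicate 3 the differences of these 5 members were 0.31, 0.69, -0.36, -0.30 and -0.55.

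The rest of the pathway was read from 82 measured genes listed by role. By limma 0 of the 82 rose or fell, while 17 had an unadjusted p under 0.05. The share over all genes at that unadjusted level was 12.7%. The median difference of the 82 was -0.01, equal to that of all genes. KO and WT arrays did not overlap for 15 of them, 10 with KO above and 5 with KO below. That is 18.3% of the 82, close to the 17.2% of all genes, so it says nothing particular about them.

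The ligand probe sets read low in both genotypes. Jag1 lay at or below the stand-in for background of 3.39, and Dll1, Dll3, Dll4 and Dner had group means of 3.39 to 3.68, so small differences in these genes do not show that expression was alike. The 8 ligand genes, which include Dll1, Dll4, Jag1 and the atypical ligand Dlk1, differed by -0.09 to 0.21, and 0 passed (0 at an unadjusted p under 0.05). Dlk1 read 4.89 ± 0.17 in WT and 5.10 ± 0.13 in KO (limma adjusted p = 0.512). Dll1 read 3.49 ± 0.05 and 3.39 ± 0.06 (adjusted p = 0.738). Of the remaining receptors Notch3 differed by 0.14 (0.04 without WT replicate 3) and Notch4 by -0.07, and in each the groups overlapped.

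Enzymes that modify and cut the receptor had differences on both sides of 0. Of 9 other glycosylation genes 0 passed, and 1 had an unadjusted p under 0.05. This was Xxylt1, a xylosyltransferase that extends O-glucose on Notch, at -0.41 (limma adjusted p = 0.335), while Poglut1, which adds that glucose, differed by -0.22 (-0.10 without KO replicate 1 and -0.13 without WT replicate 3). Of 9 proteolysis genes 0 passed and 6 had an unadjusted p under 0.05, where the share of all genes was 12.7%. Furin read 10.75, 10.99 and 11.04 in WT and 11.51, 11.32 and 11.26 in KO, a difference of 0.44 with no overlap (limma adjusted p = 0.119). Aph1b, a subunit of γ-secretase, read 6.43, 6.61 and 6.53 in WT and 5.70, 6.13 and 6.21 in KO, a difference of -0.51 with no overlap (limma adjusted p = 0.137). Chosen after their values were seen, the near-identical paralog Aph1c differed by -0.67, the catalytic subunit Psen2 by -0.36 and the sheddase Adam17 by 0.29. Probes of Aph1b and Aph1c may detect both transcripts. For these 5 proteolysis genes the groups did not overlap, and none passed. That is 55.6% of the 9, against 17.2% of all genes. The list was chosen with earlier results known, so these shares only describe it.

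Turnover genes and cofactors of RBPJ did not pass the test. Of 15 trafficking and turnover genes 0 passed, and 2 had an unadjusted p under 0.05. Dtx3, an E3 ubiquitin ligase of the Deltex family, read 6.78, 6.76 and 6.87 in WT and 6.48, 6.40 and 6.38 in KO, a difference of -0.39 with tight groups (limma adjusted p = 0.076). Itch, a ubiquitin ligase known to act on Notch, differed by 0.28 with no overlap (adjusted p = 0.168). Of 15 corepressor genes 0 passed and 2 had an unadjusted p under 0.05, Spen at 0.31 and Tle3 at 0.53, both with KO wholly above WT and adjusted p of 0.174 and 0.202. Tle3 was highest in KO replicate 1 and differed by 0.33 without it. Of 7 coactivator genes 0 passed and 1, Ccnc (cyclin C), had an unadjusted p under 0.05, at 0.30 (0.16 without WT replicate 2). Its partner kinase Cdk8 differed by 0.22.

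Of 17 target genes besides Hes1, 0 passed and 5 had an unadjusted p under 0.05, all 5 with a positive difference. At that unadjusted level the share of all genes was 12.7%. The list as a whole did not lean upwards, with 9 of 17 differences positive and a median of 0.00. KO lay wholly above WT for 4 and wholly below for 1, or 29.4% without overlap against 17.2% of all genes. Of the other Hes and Hey genes Hes5 differed by 0.06 and Heyl by -0.04, both chosen after their values were seen. Hes2, Hes3, Hes6, Hes7 and Hey2 also lay above the stand-in for background and did not pass, and their differences are not given. Hey1 lay at or below the stand-in for background, so its difference of -0.05 does not show whether its expression changed. Nfkb2, which encodes an NF-κB subunit precursor, read 7.69, 7.93 and 7.56 in WT and 9.05, 8.28 and 8.48 in KO, a difference of 0.87 (limma adjusted p = 0.0822). Myc, a growth-promoting transcription factor, read 7.08, 6.81 and 7.04 in WT and 7.84, 7.29 and 7.97 in KO, a difference of 0.72 (limma adjusted p = 0.0984), and it passed without KO replicate 2 (0.93, adjusted p = 0.0188). In both genes KO replicate 2 was again the lowest KO array.

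Tnfsf4, named after its values were seen, had the largest difference of the target list. It encodes OX40 ligand, which Notch signalling has been reported to induce in mouse mast cells. It read 4.45, 3.37 and 4.06 in WT and 7.64, 4.56 and 6.54 in KO. KO replicate 2 lay only just above WT replicate 1, and the KO arrays spread widely, with an SD of 1.56. The difference was 2.28 (SE 0.65, limma adjusted p = 0.166), and it was 3.13 without KO replicate 2, where it passed (adjusted p = 0.017). Il2ra and Gata3, also named after their values were seen, differed by 0.63 and 0.56 and did not pass (adjusted p = 0.115 and 0.329). Il2ra read near background in WT, at 2.96 to 3.12.

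**Figure D4:**
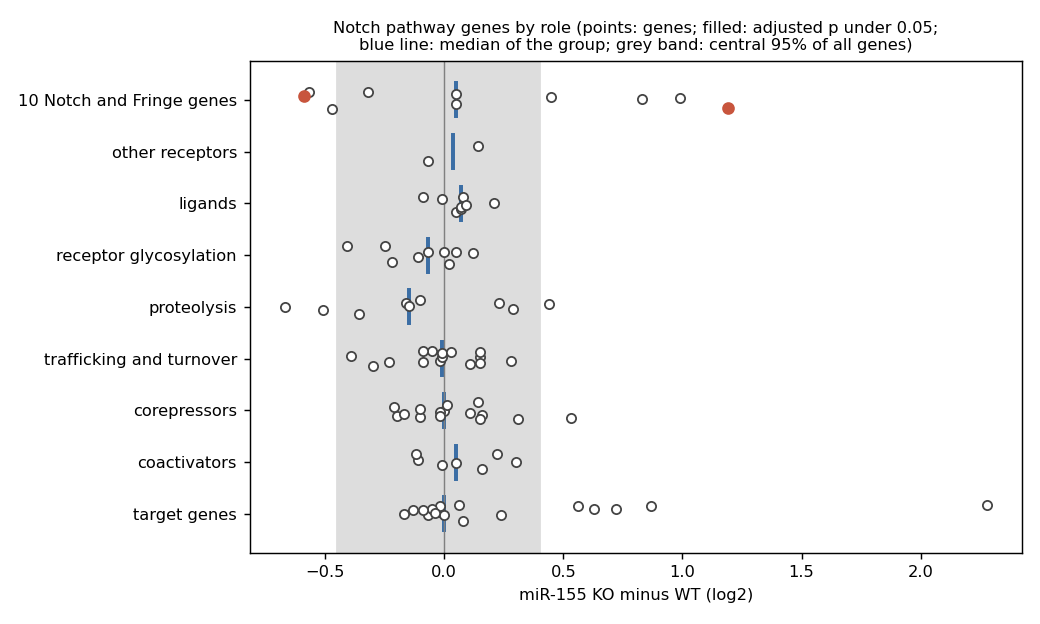
Difference miR-155 KO minus WT in log2 units for the 10 genes and for 82 other Notch pathway genes grouped by role, 1 point per gene, filled for an adjusted p under 0.05. Blue lines are group medians, and the grey band, from -0.45 to 0.40, holds the central 95% of all genes. Filled points occur only in the top row, for Lfng and Maml3, and the target genes have a tail to the right that ends with Tnfsf4 at 2.28.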

How the data were processed

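Affymetrix Mouse Gene 1.0 ST arrays were used, 1 per culture. According to the submitters' processing notes the authors ran RMA, and the deposited unit is log2 intensity. The RMA version and the genome build of the array annotation are not given in the sources used here. Column medians lay between 3.67 and 3.74, and no further normalization was applied. Of 35557 rows, 21789 had 1 gene symbol, 1621 several, and 12147 were unnamed here. A gene with several rows (999 genes) was represented by the row with the highest mean.

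The fit was limma 3.58.1 in R 4.3.3 (lmFit, eBayes) with genotype as the only term, two-sided, over 19938 genes, with Benjamini-Hochberg adjustment over all of them. It had 4 residual degrees of freedom plus 4.68 from the prior. Every adjusted p in the text is from this fit unless stated, and a gene rose, fell or changed where it was under 0.05. SE is the moderated standard error. The fit was tested on simulated data. Plots used matplotlib 3.10.9.

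The 10 members and the role and marker lists were chosen with earlier results of these data known. Besides the members, the genes named are Mir155, in each role list those that passed and the 2 with the lowest p, and Fcer1a, Ms4a2, Kit and Cpa3. Others were chosen after their values were seen. Same-numbered cultures were not treated as pairs: their deviations from the group means correlated at -0.01, -0.06 and 0.24 over genes for numbers 1, 2 and 3. Between cultures with different numbers the correlations ran from -0.25 to 0.24. With arrays, precision is limited by their number, here 3 per group. Some pathway genes are not reported here.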

Additional observations from a re-analysis of the deposited data

How the results depend on the processing

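Alternatives were a replicate block, 2 scalings, a filter on dim genes, other priors, array weights, every row of the table, averaged rows, an ordinary test and leaving out each array. Of the single-gene values 372 kept their direction and side of the threshold, 10 no longer passed, 2 newly passed and 6 changed sign. A gene that did not pass and stayed so counts as kept. The 10 were all values of Lfng and Maml3. Lfng passed under 13 of the 15 alternatives and Maml3 under 7 of the 15. The count of changed genes was 164, with 2531 of 19938 at an unadjusted p under 0.05 (limma). It was 4 over every row, where 2128 of the same genes had an unadjusted p under 0.05. It was 0 in the ordinary test, with 1986 at that level, and 15 to 167 without 1 array. Leaving out WT replicate 1 gave 15, WT replicate 2 43 and WT replicate 3 27, against 103 without KO replicate 1 and 74 without KO replicate 3. The count of changed members, 2, was 0 over every row and 0 in the ordinary test, and 1 (Lfng) without each array. Over every row 8 of the 10 members had an unadjusted p under 0.05, beside 2128 of the 19938 genes. In the ordinary test 5 members did, beside 1986 genes. The members were chosen with earlier results known, so these counts only describe them. The count of other pathway genes, 0, was 2 with the replicate block (Myc and Tnfsf4) and 0 to 3 without 1 array, the 3 being Myc, Il2ra and Tnfsf4 without KO replicate 2. The replicate block changed the call of no member. Notch2 was at -0.02 with array weights, -0.05 without WT replicate 3 and -0.08 without KO replicate 1, Rfng at -0.02 without WT replicate 3, and Notch4 at 0.00 and 0.02 without WT replicate 3 and KO replicate 1, each with the sign opposite to the reported one. Without 1 array Notch2 ran from -0.08 to 0.15, Rfng from -0.02 to 0.11 and Notch4 from -0.15 to 0.02. Testing every row raises the number of tests and also takes the variance prior from all rows. The SE of Maml2 was then 0.32 against 0.28 and that of Rbpj 0.22 against 0.20, while Lfng and Maml3 stayed at 0.10 and 0.09. Leaving out an array lowers the number of samples. What caused the lost calls was not tested.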
